A study of Mus musculus with 2 samples.

Results

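Agilent promoter tiling arrays also carry probes that lie beyond the end of a gene, annotated DOWNSTREAM in the array files, and these regions are described here for Ring1B in mouse embryonic stem (ES) cells. A downstream region was the set of non-control DOWNSTREAM probes of 1 gene name on 1 chromosome, with at least 3 probes. There were 1464 such regions, 702 on array 1 and 762 on array 2, of 31722 tiled regions of any annotation. One region fell below the probe minimum through outlier flags, which left 1463 measured regions with 10199 probes. Another 610 gene names had fewer than 3 downstream probes and were not included. DNA precipitated with a monoclonal Ring1B antibody (labelled Cy5) was hybridised together with whole-cell input DNA (labelled Cy3) from ES cells fixed with formaldehyde, and both were amplified by ligation-mediated PCR. No genotype, treatment or second group is given in the labels. The ES cell identity comes from the sample titles, although the source names begin with Muscle; immunoprecipitated DNA holds no expression values, so the cell type could not be checked with markers. The 2 arrays had the same dye orientation and shared no probe, so each region was measured once, with no replicate, no dye swap and no mock precipitation. Every difference below is therefore a description without a test, and each SD is the spread over the probes of a region.

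Ring1B is a RING-type ubiquitin ligase and the catalytic core of Polycomb repressive complex 1, which ubiquitylates histone H2A. In ES cells Polycomb complexes are best known at CpG-rich starts of silent genes for developmental transcription factors, and their domains can run from the promoter across a short gene. ChIP-chip measures this occupancy as the ratio of precipitated to input DNA at each probe, and fragments longer than the probe spacing let neighbouring probes share signal. A downstream region asks how far beyond the annotated gene end that ratio stays raised. The gene end is the one in the array's annotation; whether later annotation extends the transcript into these probes was not analysed here.

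The value of a region is the mean over its probes of the log2 ratio of precipitated to input signal, relative to the median probe of the array, so 0 is the typical probe and 1 is a 2-fold higher ratio. Regions at 1 or more are called high and those at -1 or less are called low. The arrays held 237054 and 237168 usable probes. Downstream probes were dimmer than the rest: the input signal was well above background for 58.3% of them, against 72.0% of promoter and 79.9% of inside probes. Both channels sat at the software's floor value for 33.0% of downstream probes, 19.6% of promoter probes and 12.9% of inside probes, and such a probe lies close to 0 whatever its occupancy. In 75 downstream regions every probe was at the floor in both channels, and in 127 no probe had input well above background. The annotation was checked against probe order. Of the 1037 regions whose gene also had promoter and inside probes, 1036 lay on the far side of the gene from its promoter.

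The probes below show what was measured in the regions on which the results turn. For each of 7 high regions the probe with the highest ratio is printed, and for 3 low regions the probe with the lowest. Sequences and positions are those of the array files, whose genome build and probe strand are not given in the sources used here; capitals mark CpG dinucleotides.
Ptf1a, chr2:19513211-19513270, log2 ratio 2.95: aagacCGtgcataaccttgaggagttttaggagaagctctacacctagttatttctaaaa
Neurog3, chr10:61653954-61654013, log2 ratio 2.40: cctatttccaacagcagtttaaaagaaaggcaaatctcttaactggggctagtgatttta
Hoxc12, chr15:102925258-102925310, log2 ratio 3.30: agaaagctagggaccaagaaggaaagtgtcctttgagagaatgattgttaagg
Foxb2, chr19:16573143-16573197, log2 ratio 1.72: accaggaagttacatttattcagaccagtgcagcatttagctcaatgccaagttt
Znrf4, chr17:54668992-54669044, log2 ratio 3.27: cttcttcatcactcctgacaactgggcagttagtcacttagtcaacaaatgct
mmu-mir-9-3, chr7:75375036-75375092, log2 ratio 2.65: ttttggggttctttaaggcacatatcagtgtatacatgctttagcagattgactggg
Rps13, chr7:112247568-112247625, log2 ratio 2.39: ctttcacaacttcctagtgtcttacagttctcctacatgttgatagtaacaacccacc
Tssk2, chr16:17449986-17450041, log2 ratio -3.93: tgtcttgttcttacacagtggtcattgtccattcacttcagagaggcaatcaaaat
Cd52, chr4:133471652-133471696, log2 ratio -3.24: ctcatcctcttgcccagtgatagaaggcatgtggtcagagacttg
Il17c, chr8:121066074-121066124, log2 ratio -4.39: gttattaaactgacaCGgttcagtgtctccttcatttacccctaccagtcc
The printed probes are CpG-poor. Those of Hoxc12, Neurog3, Foxb2, Znrf4, mir-9-3 and Rps13 hold 0 CpG and those of Ptf1a and Il17c hold 1. Each is a single probe, and the 7 high regions as a whole ranged from 0.42 (Ptf1a) to 3.45 (Znrf4) CpG per 100 bases.

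Downstream regions as a whole lay close to the array median. Their median was -0.05, with quartiles of -0.42 and 0.22 and a range from -3.11 to 2.33. There were 68 high regions (4.65%) and 128 low regions (8.75%). Over all tiled regions the shares were 4.03% high and 5.44% low, over promoter regions 2.29% and 3.78%, and over inside regions 5.47% and 6.58%. High regions made up 34.7% of the called downstream regions; that share was 45.0% with another background correction (normexp), 46.4% with the deposited series table, 56.7% without centring and 23.3% without probes dim in input.

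**Figure D1:**
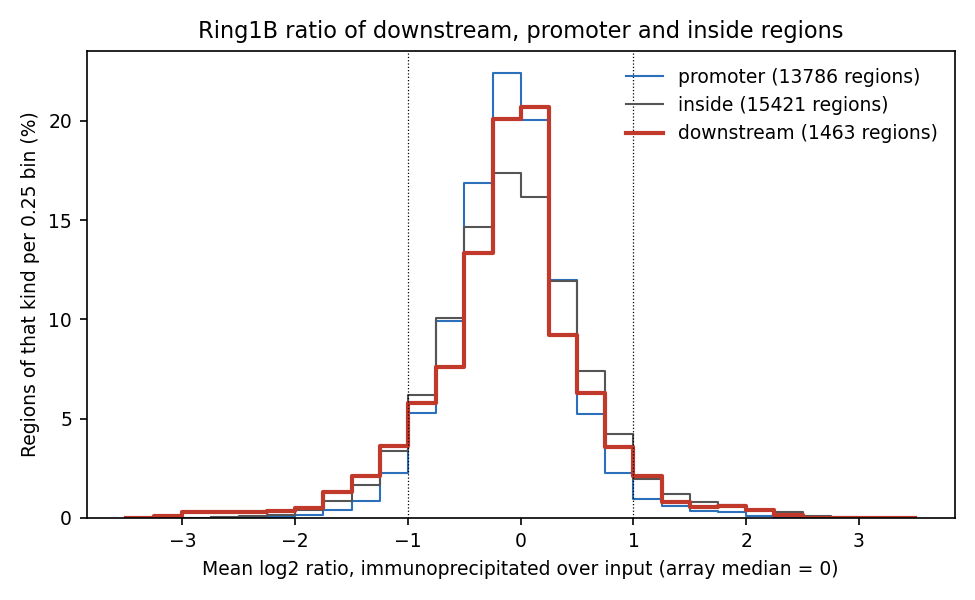
Percent of regions (y axis) per 0.25 bin of mean log2 ratio (x axis) for promoter, inside and downstream regions; dotted lines mark -1 and 1. The 3 curves centre near 0, with medians of -0.09, -0.07 and -0.05, and the downstream curve has the largest share at -1 or less, 8.75% of regions.

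Downstream regions are short, with a median of 6 probes over 1233 bp against a median of 17 probes for promoter and 12 for inside regions, and short averages scatter more. Of the 488 downstream regions with 3 or 4 probes 7.58% were high and 12.3% low. Promoter regions of that size were high in 9.72% and low in 13.5% of cases, and inside regions in 8.30% and 16.1%. At 5 to 9 probes the downstream shares were 3.38% and 7.85%, against 3.09% and 7.63% for promoter and 3.79% and 10.3% for inside regions. Set beside regions of equal probe number, the downstream share of high or low regions was thus not above that of both other kinds. At 10 to 19 probes downstream regions were high in 3.02% of 199 cases, which lies between promoter (0.892%) and inside (6.59%) regions. None of the 37 downstream regions with 20 or more probes was high.

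High regions were more frequent at genes of developmental regulators than at other genes, although most high regions lay outside these genes. The lists used here were chosen with earlier results of these data known. Of the 36 members on 4 lists (Hox genes, other homeobox genes, other developmental transcription factors, developmental signalling genes), 17 were high (47.2%, exact binomial 95% interval 30.4 to 64.5, counting error only), 0 were low and 33 lay above 0. Among the other 1427 regions 51 were high (3.57%) and 128 low (8.97%). The median was 0.97 for the 36 and -0.06 for the others. The 4 lists account for 2.46% of all downstream regions and for 17 of the 68 high ones. Where every probe of a region had input well above background, 12 of 18 developmental regions were high, against 21 of 244 others (8.61%).

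**Figure D2:**
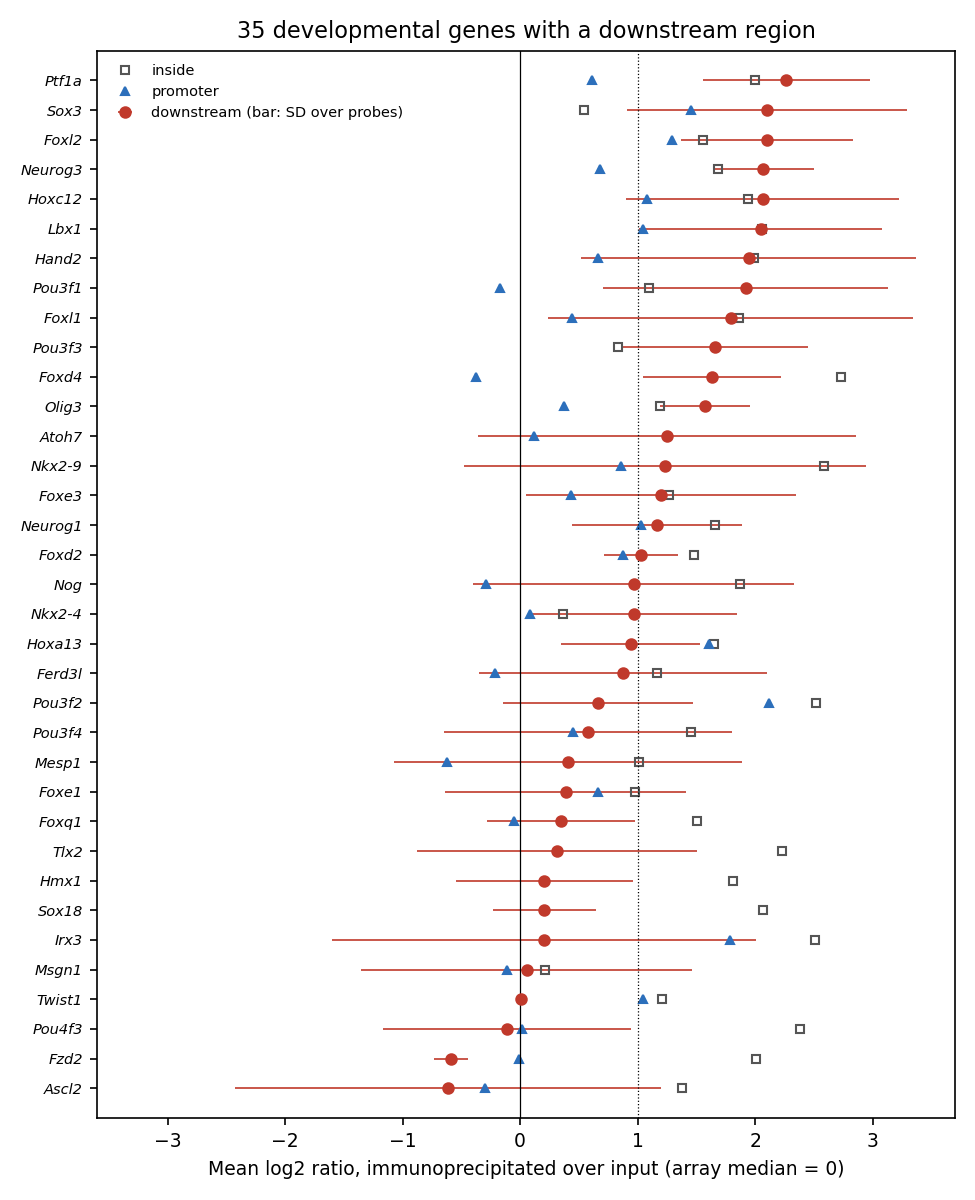
Mean log2 ratio (x axis) of the downstream region (red circles, bar: SD over probes), the inside region (open squares) and the promoter region (triangles) of 35 of the 36 developmental genes, ordered by the downstream value; 1 region with every probe at the floor in both channels is not drawn. The top 17 genes, from Ptf1a at 2.26 to Foxd2 at 1.03, are high; the lowest, Ascl2, is at -0.61.

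Among the basic helix-loop-helix factors, which specify neurons, pancreas and heart, the highest was Ptf1a, a determinant of pancreas and cerebellum. Its downstream region (chr2:19512722-19513270) had probe log2 ratios of 1.44, 2.75, 1.91 and 2.95 and a mean of 2.26 ± 0.71 (SD, 4 probes), a 4.80-fold ratio. All of its probes were above 1, and the mean lay above those of its inside (2.00) and promoter (0.61) regions. Neurog3, the switch for endocrine pancreas, had probes between 1.34 and 2.40 and a mean of 2.07 ± 0.43 (5 probes), and its neural relative Neurog1 had a mean of 1.16 ± 0.72 (8 probes). Hand2, a heart and limb factor, had a mean of 1.95 ± 1.43, but its 3 probes were spread from 0.48 to 3.33. Olig3, a dorsal neural tube factor, stood at 1.58 ± 0.38 (3 probes). Atoh7, needed for retinal ganglion cells, had a mean of 1.25 ± 1.61, and 2 of its 7 probes were at the floor in both channels. These 6 are the high ones of 11 members of the family; the others were Ferd3l at 0.87, Mesp1 at 0.41, Msgn1 at 0.06, Twist1 at 0.00 and Ascl2 at -0.61.

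Forkhead genes, whose products bind DNA through a winged-helix domain, gave 5 of the 17 high developmental regions. Foxl2, an ovarian factor, had 8 probes from 0.93 to 3.23 downstream (chr9:98598456-98599734; mean 2.10 ± 0.73), higher than its inside (1.56) and promoter (1.29) means. Foxl1 stood at 1.79 ± 1.55 (6 probes), Foxd4 at 1.63 ± 0.59 (3 probes), Foxe3, a lens factor, at 1.20 ± 1.15 (9 probes) and Foxd2 at 1.03 ± 0.32 (5 probes). Foxd4 had a promoter mean of -0.38 beside an inside mean of 2.73, so its raised ratio lay in and after the gene. Foxb2, a forkhead gene outside the lists and picked after its values were seen, had the most even of these regions: its 6 probes lay between 1.12 and 1.72 (mean 1.48 ± 0.23), beside inside 2.90 and promoter 1.29. Foxe1 at 0.39 and Foxq1 at 0.35 stayed below 1.

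Sox3, an X-linked factor of neural progenitors, had 9 downstream probes from 0.22 to 3.64 (chrX:56285338-56286553; mean 2.10 ± 1.19). This exceeded its promoter mean of 1.45 and its inside mean of 0.55. Among homeobox genes Hoxc12, of the posterior HoxC cluster, had probes of 1.15, 2.11, 3.096, 3.30 and 0.67 and a mean of 2.07 ± 1.16, beside inside 1.94 and promoter 1.08. Lbx1, of migrating muscle precursors and dorsal spinal cord, was nearly level from gene to downstream region (2.06 inside, 2.05 ± 1.04 downstream over 6 probes). The POU factors of the developing nervous system differed among themselves. Pou3f1 reached 1.92 ± 1.21 and Pou3f3 1.66 ± 0.79 downstream, both above their inside means of 1.09 and 0.83. Pou3f2 was at 0.66 ± 0.81 and Pou3f4 at 0.58 ± 1.22, both below their inside means of 2.51 and 1.45. Pou4f3, a POU factor of sensory neurons, was at -0.11 ± 1.06 (5 probes) beside 2.38 inside. Nkx2-9 stood at 1.23 ± 1.71 (4 probes), with 1 probe at -1.30.

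Most of the remaining developmental members, Nkx2-4 (0.97 downstream, 0.36 inside) excepted, show the opposite arrangement, a raised gene with a downstream region nearer to 0. Irx3 had means of 1.78 over the promoter and 2.51 inside, but 0.20 ± 1.80 over 19 downstream probes, which ranged from -4.18 to 2.67. That mean joins 2 unlike stretches. The probes in chr8:90389760-90391149 were all above 0 (0.17 to 2.67), and those in chr8:90388102-90389560 lay between -4.18 and 0.12. Hoxa13, a limb and genital factor, stood at 0.94 ± 0.59 against 1.65 inside. Tlx2 (0.31 against 2.23 inside), Hmx1 (0.21 against 1.81) and Sox18 (0.21 against 2.06) dropped further. The Wnt receptor gene Fzd2 had an inside mean of 2.00 and its 3 downstream probes, all well above background in input, lay between -0.74 and -0.45. The BMP antagonist gene Nog, the other signalling member, was at 0.97 ± 1.37 downstream and 1.88 inside. Twist1, a mesoderm and skull factor, gave 0.00, but none of its 3 downstream probes had input well above background, so this is not a measurement of a low ratio.

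Averaged over the 31 developmental genes with a placed gene end, the ratio was about level across the annotated end. The mean over genes was 1.77 ± 0.99 (SD over genes) in the bin from 1500 to 1000 bp before the end and 1.57 ± 0.99 from 1000 to 500 bp before it. It was 1.31 ± 1.01 in the last 500 bp of the gene and 1.32 ± 1.07 in the first 500 bp beyond. From 500 to 1000 bp beyond it was 0.96 ± 1.03 (25 genes), and from 1000 to 1500 bp 0.79 ± 0.94 (10 genes). The last means rest on fewer genes, because few downstream regions run that far. In the 26 of these genes with a high inside mean, the ratio was lower beyond the end. It was 1.49 ± 0.99 in the last 500 bp and 1.19 ± 1.07 in the first 500 bp beyond. The same genes fill both bins, and the spread of their paired differences was not computed. These 26 were chosen by their inside mean, which includes the probes just before the end. Over the same bins CpG density fell, from 5.03 per 100 bases at 1500 to 1000 bp before the end to 2.22 in the first 500 bp beyond it and 1.32 in the next. The other genes (232 to 888 per bin) stayed between -0.24 and -0.02 in every bin.

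**Figure D3:**
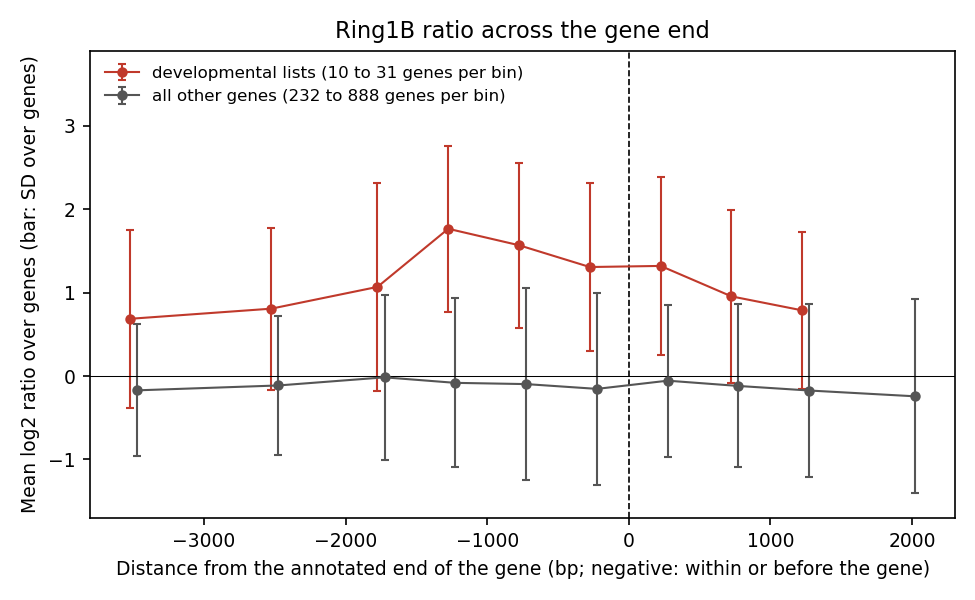
Mean log2 ratio over genes (y axis, bar: SD over genes) by distance from the annotated gene end (x axis, bp) for developmental genes (red) and all other genes (grey), in bins with at least 10 genes. The red line is at 1.31 just before and 1.32 just after the end, then at 0.96 and 0.79, while the grey line stays between -0.24 and -0.02.

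Across all members the downstream value followed the gene's own inside and promoter values weakly. The median of downstream minus inside was -0.11 over 930 genes (422 above 0), and of downstream minus promoter 0.02 over 1197 genes (615 above 0); the second turned to -0.02 with normexp background correction or without dim probes. Differences of 1 or more made up 14.2% and those of -1 or less 16.2% against inside, and 8.27% and 8.77% against promoter. Over all 12476 genes with both kinds, inside minus promoter was 1 or more in 9.96% and -1 or less in 7.52%. Pearson's r was 0.20 (Spearman 0.14) between downstream and inside values and 0.16 (0.10) between downstream and promoter values. These are descriptions across genes, which share arrays and, where probes adjoin, DNA fragments. Within the 35 developmental genes with inside regions r was 0.01.

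**Figure D4:**
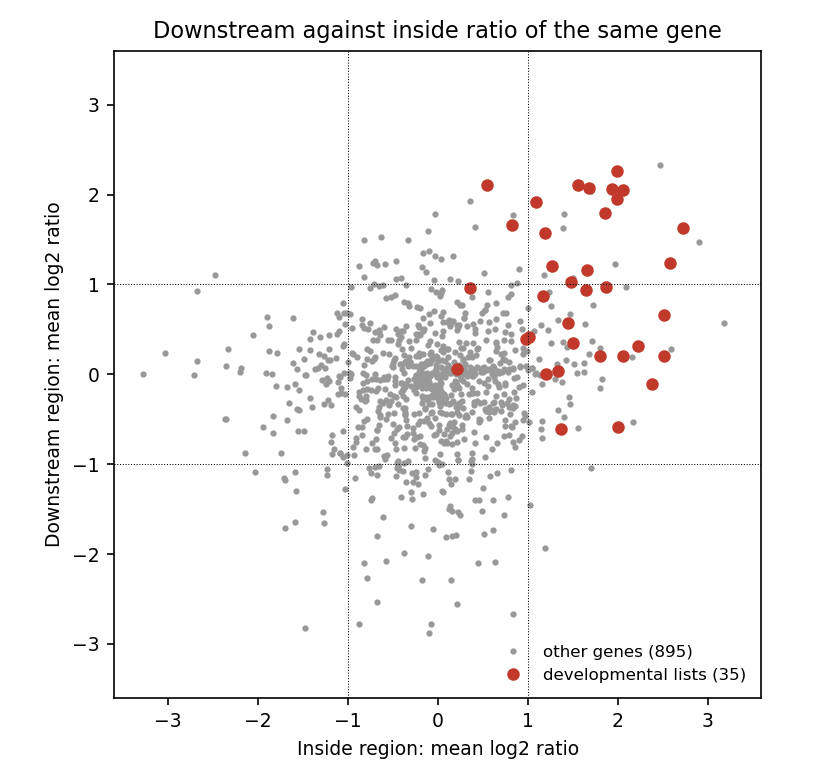
Downstream mean log2 ratio (y axis) against the inside mean of the same gene (x axis) for 895 other genes (grey) and 35 developmental genes (red); dotted lines mark -1 and 1. Of the developmental genes 30 have an inside mean of 1 or more, and 14 of those are also high downstream.

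A high gene body went with a high downstream region in a minority of genes. Of 90 genes with an inside mean of 1 or more, 22 were high downstream (24.4%, interval 16.0 to 34.6), against 33 of 734 with an inside mean between -1 and 1 (4.50%) and 1 of 106 with a low inside mean. Within the high-inside genes, 14 of 30 developmental genes and 8 of 60 others (13.3%) were high downstream. Of 20 genes with a high promoter mean, 8 were high downstream (40.0%, interval 19.1 to 63.9). For the developmental genes the downstream mean was above the promoter mean in 23 of 32 (median difference 0.71) and above the inside mean in 9 of 35 (median difference -0.59). Read the other way, 45 of the 68 high regions had both a promoter and an inside value. In 17 of these the inside region alone was also high, in 5 both were, in 1 the promoter alone, and in 22 neither. All 22 of the last kind were outside the developmental lists.

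The highest region of all was outside the lists. Znrf4, which encodes a zinc and RING finger protein, had downstream probes (chr17:54668283-54669517) of -0.63, 3.18, 3.12, 2.35, 3.27, 2.14, 2.76 and 2.47. The mean was 2.33 ± 1.27, beside 2.47 inside and 0.51 over the promoter, so 7 of 8 probes continued the level of the gene. Adrb1, the beta-1 adrenergic receptor gene, had probes from 1.00 to 3.08 and a mean of 2.04 ± 0.85 (4 probes), beside 1.71 inside and 1.00 over the promoter. Rps13, of the small ribosomal subunit, had 3 downstream probes of 1.57, 2.39 and 1.82, against an inside mean of 0.36 and a promoter mean of -0.04. Its last 5 inside probes lay between 0.81 and 1.67, and 1 inside probe at -4.89 lowered the inside mean, so the raised values began within the gene.

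In several other genes the downstream mean stood above the promoter or inside mean. The vasopressin gene Avp had a mean of 1.63 ± 0.41 (3 probes) beside -0.90 over the promoter and 0.41 inside, and its downstream minus promoter difference was among the 6 largest. Gm266 was at 1.63 ± 0.82 beside -0.48 over the promoter and 1.40 inside. Rps23 was in the same group with 1.495, but its 4 probes ran from -2.71 to 3.104 (SD 2.81). The beta-defensin gene Defb25 was even (1.78 ± 0.20, 4 probes, inside -0.04), and a divergent promoter of Defb25 and Rem1 was tiled 928 bp away. H1fx, a linker histone gene, stood at 1.77 ± 1.01 (4 probes), with 0.84 inside. Further high regions were chosen here after their values were seen. The Toll-like receptor adaptor gene Myd88 was at 1.498 ± 1.16 (8 probes spread over 9798 bp, inside -0.34). Acyp1 was at 1.38 ± 0.92 (14 of 15 probes above 0, inside -0.10) and Atf4 at 1.53 ± 0.95 (inside -0.63). High regions that continued a high gene outside the lists included Gadd45g (1.79, inside 1.41), Id3 (1.23, inside 1.97) and Dio3 (1.10, inside 1.18). Mafa, a regulator of insulin, was just under the threshold at 0.98 ± 0.87, with 2.10 inside and -1.20 over the promoter.

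**Figure D5:**
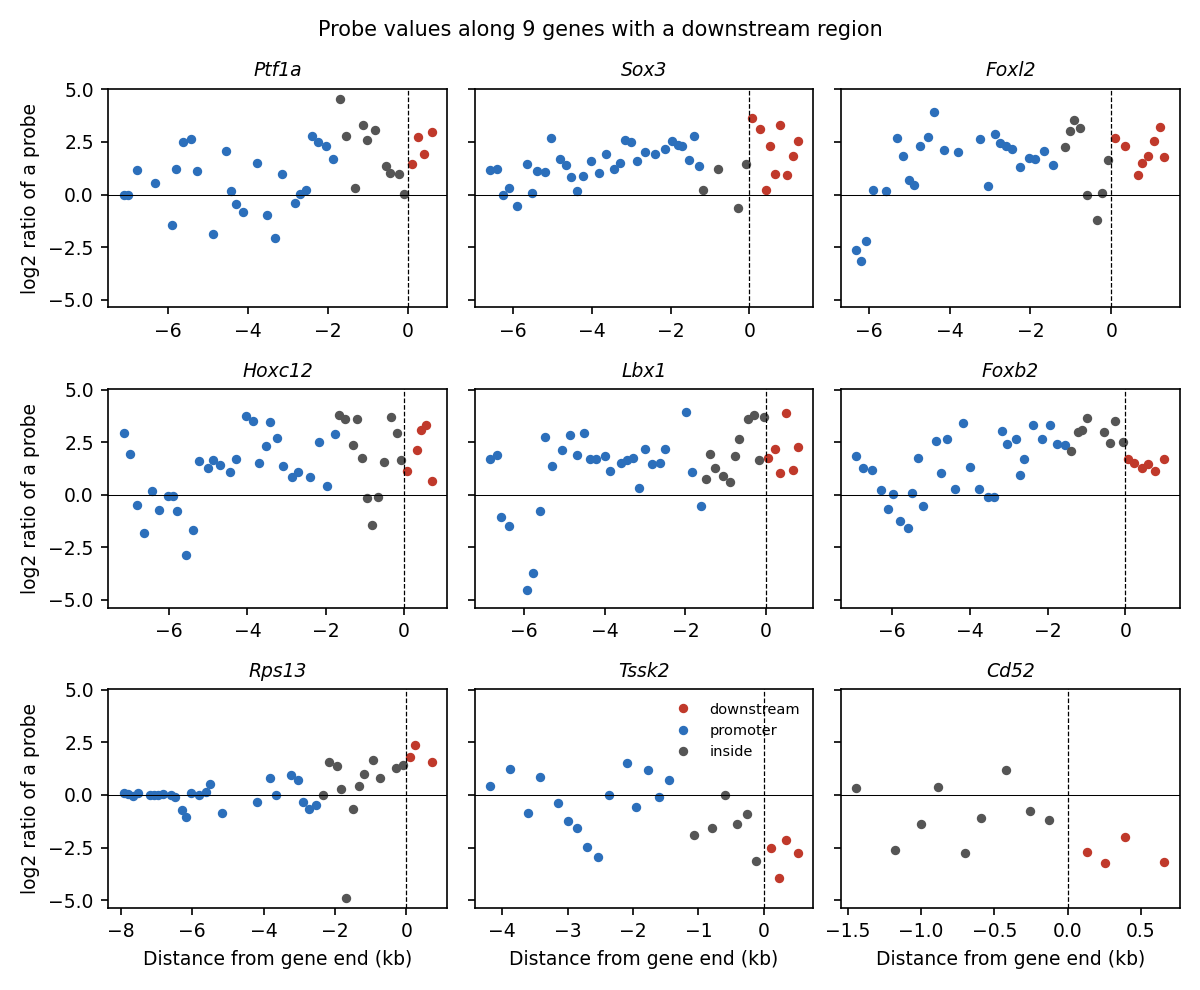
Log2 ratio of each probe (y axis) against its distance from the annotated gene end (x axis, kb; each panel has its own range) for 9 genes, coloured by annotation. In Ptf1a, Sox3, Foxl2, Hoxc12, Lbx1 and Foxb2 raised probes lie both downstream and in the gene or promoter. Their lowest inside probes are, in that order, 0.03, -0.65, -1.21, -1.46, 0.61 and 2.08, so the raised values are not unbroken in every gene. In Rps13 the raised values lie around the gene end, and in Tssk2 and Cd52 all downstream probes are below -2.

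MicroRNA hairpins are so short that a downstream region begins close to the hairpin itself. Of 86 microRNA regions 4 were high and 6 were low, with a median of -0.15; the share of high regions, 4.65%, equals that of all downstream regions. The 4 high ones were mir-132, mir-9-3, mir-9-1 and mir-137, microRNAs best known from neurons. The mature sequences are printed to show which of these regions stand for the same product. They are from RefSeq (GRCm38.p6), with the seed, bases 2 to 8, in capitals.
mmu-miR-9-5p (from mir-9-1 and mir-9-3): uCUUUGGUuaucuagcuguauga
mmu-miR-9-3p (from mir-9-1 and mir-9-3): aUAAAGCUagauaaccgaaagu
mmu-miR-132-3p: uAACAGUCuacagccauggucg
mmu-miR-212-3p: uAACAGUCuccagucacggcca
The mir-9-1 and mir-9-3 loci give the same mature products, as does mir-9-2, which is not among the 4 high regions. The seed of miR-132-3p is shared with miR-212-3p, whose hairpin was tiled 550 bp from the mir-132 downstream region. The mir-9-3 region had all of its 12 probes between 0.87 and 2.65 (mean 1.83 ± 0.55) and a promoter mean of 1.25. The mir-9-1 region (11 probes, 1.46 ± 1.41) was more uneven, from -0.99 to 3.19. The mir-132 region had 4 probes between 1.25 and 2.46 (mean 1.88 ± 0.57). In the mir-137 region (1.18 ± 1.39) 5 of 17 probes were at the floor in both channels. The 3 loci of the neuronal mir-124a differed: mir-124a-3 was at 0.97, mir-124a-1 at 0.53 and mir-124a-2 at -0.71, although their promoter means were 0.89, 1.57 and 1.10.

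Olfactory receptor genes, which form large clusters of single-exon coding sequences, supplied 552 of the 1463 downstream regions. Only 2 of them were high (0.362%) and 37 were low (6.70%), with a median of -0.03. Input was well above background for 35.9% of their probes. In 366 of the 552 at least 1 in every 2 probes was at the floor in both channels, which draws these means towards 0. In 49 (8.88%) every probe was at the floor, and these cannot show a departure from 0. Where every probe of an olfactory region had input well above background, 0 of 20 were high and 6 were low. The 2 high ones were Olfr1351 (1.15 ± 1.00, 3 probes, none with input well above background) and Olfr702 (1.11 ± 1.30, 8 probes), the latter beside an inside mean of -2.48. Vomeronasal receptor genes, another chemosensory family, had 3 high and 6 low of 71 regions and a median of -0.03. Histone genes had 1 high and 2 low of 28 (median 0.12), ribosomal protein genes 2 and 2 of 17 (median 0.10) and keratin or keratin-associated genes 0 and 1 of 17 (median 0.13). Genes in no list had 37 high (5.85%) and 73 low of 633. No Polycomb, protocadherin or reproductive homeobox gene of the lists had a downstream region.

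Low downstream regions were more frequent than high ones. None of the 128 belonged to the developmental lists, but these lists hold only 2.46% of all downstream regions. The lowest was Olfr462 at -3.11 ± 2.69, whose 6 probes ran from -5.45 to 1.37. Il17c, a cytokine gene, had probes of -1.90, -2.34 and -4.39 (mean -2.88 ± 1.33), and the testis kinase gene Tssk2 had -2.50, -3.93, -2.13 and -2.74 (mean -2.83 ± 0.78). Cd52, a lymphocyte surface glycoprotein gene, was similarly even, with probes from -3.24 to -2.01 (mean -2.78 ± 0.57). In these genes all downstream probes were negative and had input well above background, while the inside means were nearer to 0, at -0.09 for Il17c, -1.48 for Tssk2 and -0.87 for Cd52. D17H6S53E (-2.78 ± 2.41) and 1810009O10Rik (-2.74 ± 1.37) complete the 6 lowest. Pde6b, a rod phosphodiesterase gene, combined -2.56 ± 1.06 downstream with 0.22 inside, and Vmo1 -2.67 ± 2.91 with 0.84 inside. Of the 63 low regions with both a promoter and an inside value, 50 had neither at -1 or less, 12 had a low inside region only, 1 a low promoter only and 0 both.

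Low regions were rare where input was dim. Input is the denominator of the ratio and the precipitated signal has a floor, which limits how low a region with dim input can lie. In 5 equal classes of regions by input signal, from the dimmest to the brightest, 1.02%, 0.342%, 3.07%, 11.3% and 28.0% were low, whereas 1.71%, 2.74%, 7.17%, 5.48% and 6.14% were high. All probes had input well above background in 61 of the 128 low and 33 of the 68 high regions. In 6 high regions, among them Tas2r131 and Olfr1351, no probe had input well above background. The part of input brightness in the counts of high and low regions was not tested.

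High regions were richer in CpG than the rest, with a mean of 1.42 CpG per 100 bases against 0.65 for low regions and 0.60 for those between. The share of high regions was 1.90% of 735 regions below 0.5 CpG per 100 bases, 4.79% of 438 from 0.5 to 1, 9.05% of 232 from 1 to 2, 16.0% of 50 from 2 to 4, and 4 of 8 above 4. Without the developmental genes the shares were 1.78%, 3.96%, 6.82%, 11.9% and 1 of 5. Within the developmental genes they were 1 of 4, 4 of 9, 6 of 12, 3 of 8 and 3 of 3, so high regions occurred there at every density. Ptf1a (0.42 CpG per 100 bases) and Sox3 (4.24) had similar downstream means, but the developmental median was 0.64 in the lowest class and 1.92 in the highest. Across all 1463 regions r between the mean ratio and CpG density was 0.14 (Spearman 0.04). It was 0.38 (0.31) within the 36 developmental regions and 0.07 (0.00) within the other 1427.

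Regions that adjoin the gene were high more often. With a gap below 500 bp to the nearest inside probe 58 of 907 regions were high (6.39%), with 500 to 2000 bp 5 of 251 (1.99%) and with at least 2000 bp 2 of 79 (2.53%); of the developmental regions 35 were in the first class. A promoter or inside probe of another gene lay within 1000 bp of 134 regions. Of these 7 were high (5.22%), against 61 of the other 1329 (4.59%). In 100 of the 134 a promoter probe of another gene was that near, and 2 of the 100 were high (2.00%). There were 34 pairs of members within 1000 bp of each other, so these pairs share fragments and are not separate observations. Both members were high in 1 pair, Fv1 (1.60) and Mfn2 (1.22), 81 bp apart. D17H6S53E at -2.78 and Apom at 1.07 lay 98 bp apart with opposite signs. On array 1, whose file lists distances to transcription starts, 22 of 565 regions within 2500 bp of the named gene's start were high (3.89%), 4 of 83 at 2500 to 8000 bp and 1 of 53 beyond 8000 bp. A start of another gene was nearer for 208 regions, of which 10 were high (4.81%), against 17 of the 493 others (3.45%). High regions were found on both arrays, 27 of 701 on array 1 (3.85%) and 41 of 762 on array 2 (5.38%).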

How the data were processed

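Scanner output came from Agilent Feature Extraction, version 9.1.3.1 (per the file headers). The authors deposited its processed signals, an intensity per spot and channel from which background was subtracted and to which a dye factor was applied, with the dimmest spots raised to a floor. The deposited log10 ratio was not used. The deposited series table, a log2 ratio of mean signals, served as an alternative. Here log2 of red over green processed signal was taken, probes with outlier flags (141 and 17) were left out, and each array was centred on its median probe (0.23 and 0.16). Regions needed 3 probes. Python 3.11.15 (numpy 2.4.6, pandas 2.3.3, scipy 1.17.1) and limma 3.58.1 in R 4.3.3 (normexp with offset 50, loess) were used. The procedure was tested on simulated probes with noise of each array's SD over probes, partly shared between neighbours. Of 1263 downstream regions without an added shift, 9.74% came out high and 9.98% low. In the data these shares were 4.65% and 8.75%. Names came from the array files; 1053 matched a present symbol and 324 an older one, and 86 matched none. Exact binomial intervals (95%) cover counting error only, and 1 array per region limits the precision.

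Named were the 12 highest and 6 lowest regions, the 6 largest and smallest differences from the promoter and 4 from the inside region, developmental members at 1 or more, and the 2 members of each other list with the largest size. Regions and lists were chosen with earlier results of these data known. Alternatives changed background correction, normalization, centring, the source of the values, dim and floor probes, GC correction, probe summary, probe minimum, neighbouring genes and threshold; leaving out olfactory receptor genes was added after seeing the data. The values of 1 developmental member are not reported here.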

Additional observations from a re-analysis of the deposited data

How the results depend on the processing

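No paired analysis was possible because the 2 arrays carry different probes and each is a single sample. The count of high regions was 68; it was 106 without centring, 31 with at least 5 probes, 134 with at least 1 probe, 25 at a threshold of 1.5 and 170 at 0.58. The count of low regions was 128; it was 72 with normexp, 81 without centring, 67 with the series table, 207 (of 857 regions) without dim probes, 68 with at least 5 probes, 263 with at least 1, 44 at 1.5 and 282 at 0.58. The median of -0.05 became -0.23 with normexp, -0.16 with loess, 0.14 without centring, -0.19 with the series table, -0.39 without dim probes, -0.16 without floor probes, 0.0023 with the median of the probes and -0.080 with at least 5 probes. Downstream minus inside (-0.11) became -0.29 with normexp, -0.18 with loess, -0.26 with the series table and -0.24 without dim probes. Downstream minus promoter (0.02) became -0.021 with normexp and -0.024 without dim probes. At a threshold of 1.5, 0% of the 5 high-promoter genes were high downstream. The cause of these shifts was not tested, except that the probe minimum changes the number of regions and the threshold the call itself. The median of all tiled regions, -0.08, was 0.12 without centring, 0.02 with normexp and -0.26 without dim probes. Developmental regions kept a median of at least 0.87 under every alternative, with 16 to 21 high at a threshold of 1 and a minimum of 3 probes, and 0 low there. Of 635 recomputed values of 58 named regions, 621 moved by less than the SD over probes, 14 moved further and 0 reversed. That SD is wide, with a median of 0.90 over downstream regions. The probe minimum and leaving out olfactory receptor or neighbouring genes only add or remove regions, so values could not move there. Such settings gave 58 (at least 1 probe), 28 (at least 5), 51 (olfactory) and 52 (neighbouring) of the 621. Signal over background limits 127 regions in which no probe has input well above background.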

Other observations

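Taste receptor genes, a chemosensory family outside the lists and noticed after the values were seen, had 2 high and 1 low of 19 downstream regions, with a median of -0.04; 4.65% of all downstream regions were high. Tas2r131 stood at 1.35 ± 1.17 (SD over 3 probes, none with input well above background) and Tas2r119 at 1.13 ± 1.28 (6 probes, 5 with input well above background), beside inside means of -0.16 and -0.13. Among vomeronasal receptor genes V1re13 was at 1.28 ± 0.74 with all 4 probes above 0, and V1ri10 at 1.17 ± 1.37 over 11 probes. Of the pluripotency list, which names genes of the ES cell state, 2 members had a downstream region. Utf1 was at 0.60 ± 1.87 (7 probes). Dppa5 was at -0.98 ± 1.39 (9 probes) and is the region that did not lie on the far side of its gene. Its probes lay in separate stretches, chr9:78382600-78383339 and chr9:78439997-78441175. They span 58576 bp, so the mean joins distant sites. On the X chromosome 1 of 53 downstream regions was high (1.89%), that of Sox3, and on chromosome 12 there were 7 of 33 (21.2%). The next highest share was 9.33%, on chromosome 4, beside 4.65% for all downstream regions. Differences between chromosomes were not tested.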
